A study of Rattus norvegicus with 2 samples.

Results

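Expression of 6 genes of the angiopoietin and Tie system was followed in single-cell RNA sequencing of skeletal muscle. They were the ligands Angpt1 and Angpt2, the related secreted protein Angptl4, the receptors Tek (also called Tie2) and Tie1, and the phosphatase Ptprb. They were chosen by name alone, and all 6 were found, as 6 of the 23373 gene rows of the rat library and as 12 of the 49280 rows of the chimera library, where each gene had a rat row and a mouse row. The first library came from a Sprague Dawley (SD) rat and the second from a rat-mouse chimera, an animal grown from an SD rat morula injected with mouse induced pluripotent stem cells. The mouse cells carried the Dmd mdx mutation of a mouse model of Duchenne muscular dystrophy, edited by CRISPR/Cas9 so that the mutated exon is skipped, and a Pax7-nGFP reporter, and 1 chimera of several was sequenced. In both cases muscle was taken from the whole body and digested with collagenase, and live cells were sorted with the dye Calcein Violet, so that no cell type was selected. The ages of the animals are not given in the sources used here. With 1 library per group there was no replicate check, and all 95% intervals, Poisson for summed counts and Clopper-Pearson for shares of cells, covered counting error only.

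Angpt1 is known as the activating ligand of Tek on endothelial cells (EC), where it favors vessel stability, and is usually made by cells around the vessel. Angpt2 is known as a context-dependent antagonist that EC store and release when vessels remodel. Tie1 binds neither ligand strongly but pairs with Tek, Ptprb (VE-PTP) removes phosphate groups from Tek, and Angptl4 is an inhibitor of lipoprotein lipase that responds to fasting and low oxygen and does not act through Tek.

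After filtering, 8816 SD rat barcodes and 11730 chimera barcodes were kept. Of the latter, 8230 had at most 20% of their unique molecular identifiers (UMIs, 1 per captured RNA molecule) on mouse rows and were taken as rat cells. Another 1847 had at least 80% and were taken as mouse cells, and 1653 lay between. Median UMIs per cell were 6276 in the SD rat, 8588.5 in chimera rat cells and 6948 in chimera mouse cells. The libraries shared 43 barcodes, of which 33 were kept. Chimera rat cells had 11.1% of their UMIs on mouse rows and mouse cells 4.04% on rat rows. Levels are given as CPM, counts per 1000000 UMIs of the cell's own species. Classes were named from marker genes raised in clusters built without the 6 genes, and are written X-like. Vascular EC-like cells numbered 1576 in the SD rat, 689 among chimera rat cells and 1080 among chimera mouse cells, with median UMIs of 1865.5, 3989 and 5860.5, and all of the 11 rat and 12 mouse EC markers measured were detected in them. In the SD rat 2 of their clusters, of 427 and 425 cells, were shallow (medians of 694 and 1351 UMIs), were led in part by the globin genes Hbb-b1 and Hba-a2, and had all 10 myocyte markers raised beside EC markers.

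**Figure D1:**
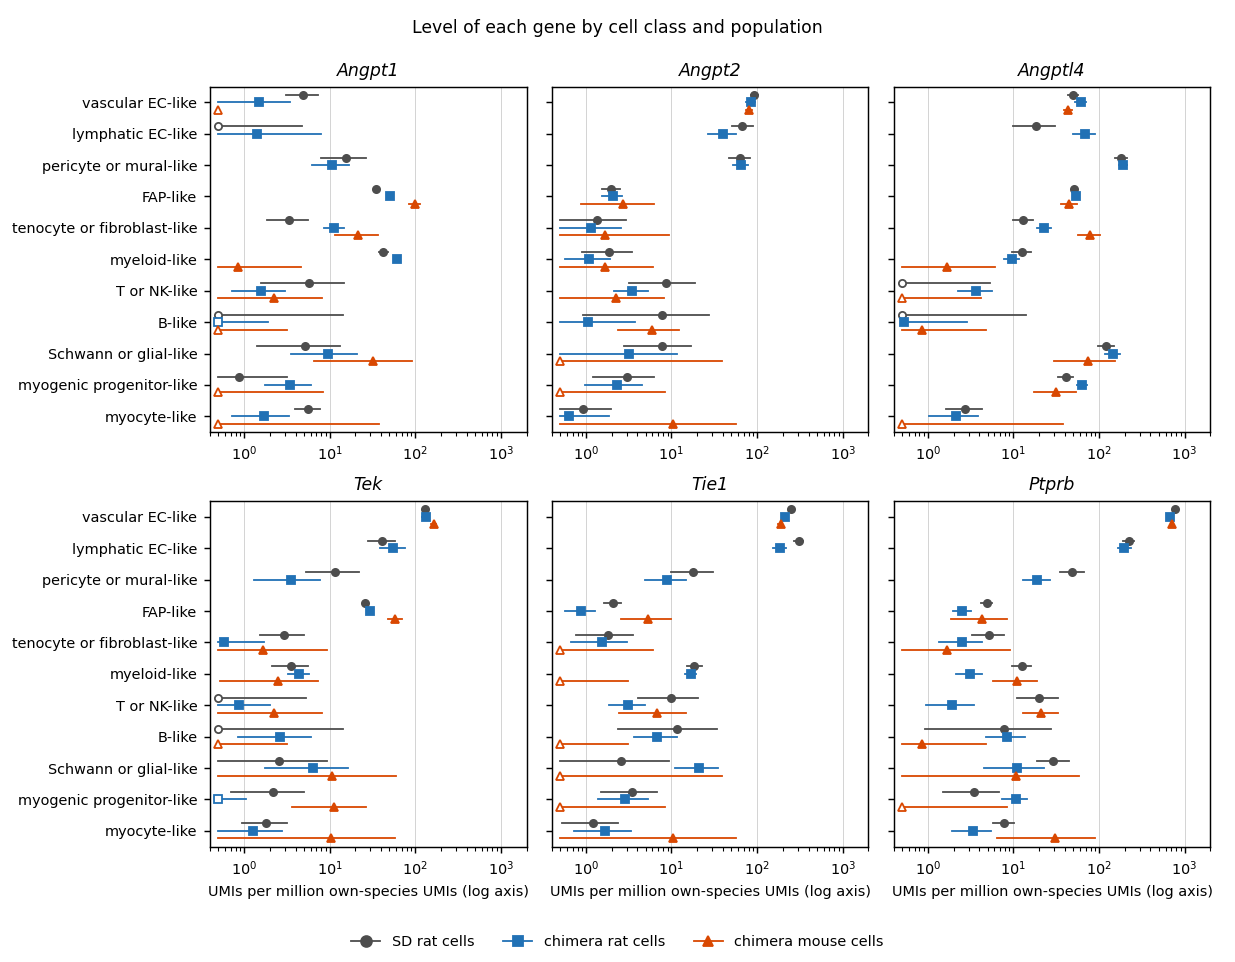
CPM of the 6 genes (log axis) by cell class in SD rat, chimera rat and chimera mouse cells, 1 point per class with its 95% Poisson interval; open symbols mark classes without a UMI, drawn at the floor of the axis. Angpt1 was highest in FAP-like and rat myeloid-like cells, Angptl4 in rat mural-like cells, and Tek, Tie1 and Ptprb in EC-like cells, with further Tek in FAP-like cells.

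First, the sources of Angpt1 (ENSRNOG00000005854 in rat, ENSMUSG00000022309 in mouse) were examined. Fibro-adipogenic progenitor (FAP)-like cells, the interstitial mesenchymal cells of muscle, held 78.7% of its UMIs in the SD rat, 65.1% in chimera rat cells and 90.7% in chimera mouse cells. The Angpt1 level of FAP-like cells was 34.7 CPM (95% interval 32.8 to 36.6) in the SD rat, 51.2 CPM (48.6 to 53.9) in chimera rat cells and 99.6 CPM (85.8 to 115) in chimera mouse cells. The 3 intervals did not overlap, and the order was SD rat, chimera rat, chimera mouse. At least 1 Angpt1 UMI was found in 23.0% of 3206 SD rat, 28.1% of 2599 chimera rat and 42.5% of 127 chimera mouse FAP-like cells. After thinning every cell to 1000 UMIs, which left out 4, 6 and 3 cells, these shares were 3.31% (2.72 to 3.99), 4.90% (4.10 to 5.80) and 8.06% (3.94 to 14.3). In T or NK-like cells, which should lack the gene, the unthinned shares were 3.23%, 0.997% and 1.06%, at median depths of 6619, 7671.5 and 7089 UMIs.

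Within FAP-like cells Angpt1 was present in every cluster. Among the 6 SD rat clusters it ranged from 18.3 CPM in a cluster led by Apod to 49.1 CPM in a cluster led by Sfrp4 and Gpc3, where 31.4% of cells had a UMI. The 4 chimera rat clusters ranged from 34.6 CPM, again in the Apod cluster, to 69.7 CPM in the Sfrp4 cluster, where 34.5% of cells had a UMI. The Sfrp4 cluster was thus the highest in both animals, while the Apod cluster was close to its neighbors in the order, at 19.3 CPM in the SD rat and 34.9 CPM in the chimera rat.

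Myeloid-like cells were the other source, in rat cells only. Their Angpt1 level was 42.6 CPM (37.3 to 48.5) in 616 SD rat cells and 60.6 CPM (56.1 to 65.4) in 1192 chimera rat cells, against 0.840 CPM (0.0213 to 4.68), a single UMI, in 99 chimera mouse cells. The shares of cells with a UMI were 11.7%, 16.4% and 1.01%, and after thinning 5.38% (3.73 to 7.48), 5.05% (3.88 to 6.46) and 0% of 99 cells, which allows up to 3.03%. These averages hid a sharp division. In the SD rat, the cluster of 121 cells led by Lyz2, Il1b, Ccl3 and Plac8 had 229 CPM (199 to 263), with a UMI in 47.9% of cells (38.8 to 57.2). The cluster of 361 cells led by the complement genes C1qa, C1qb and C1qc, which mark resident macrophages, had 1.26 CPM. Chimera rat cells showed the same division, with 283 CPM (260 to 307) in 335 cells of the Lyz2, Il1b and Ccl3 cluster, where 49.3% had a UMI (43.8 to 54.7), and 6.52 CPM in 541 cells of the C1q cluster. The Lyz2, Il1b and Ccl3 clusters also carried Csf1r, the receptor for macrophage colony-stimulating factor, in 92.6% of SD rat and 89.9% of chimera rat cells. A small SD rat cluster of 34 cells led by the neutrophil genes S100a8 and S100a9 had 131 CPM (78.8 to 204), with a UMI in 29.4% of cells. The matching chimera rat cluster of 21 cells had 1 UMI, 15.8 CPM (0.400 to 88.1), and the intervals overlapped.

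A division by single genes, chosen after the values were seen, gave a similar contrast. Myeloid-like cells with a UMI of Plac8, a gene of circulating monocytes, and none of the 3 C1q genes had 177 CPM in the SD rat (140 cells) and 192 CPM in the chimera rat (392 cells). Those with UMIs of all 3 C1q genes had 0.925 CPM (364 cells) and 6.91 CPM (605 cells). In chimera mouse cells the Plac8 split held 41 cells, of which 0 had an Angpt1 UMI, which allows a share of up to 7.32%, against 41.4% and 41.6% in the rat cells. The mouse cluster of 67 cells led by Lyz2, Il1b and Plac8 had 1 UMI. The summed CPM of 12 FAP markers was lower in myeloid-like cells with an Angpt1 UMI than in those without, at 2079 against 3132 in the SD rat and 1553 against 1734 in the chimera. A UMI of Pdgfra, Dcn, Lum or Col1a1 was found in 98.6% of SD rat myeloid-like cells with an Angpt1 UMI and 95% of those without, and in 68.4% and 75.5% in the chimera rat, so that in the SD rat the share and the summed level ran in opposite directions. Their part in the result was not tested. On the mouse row lay 2.07% of the Angpt1 pair's UMIs in chimera rat myeloid-like cells.

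**Figure D2:**
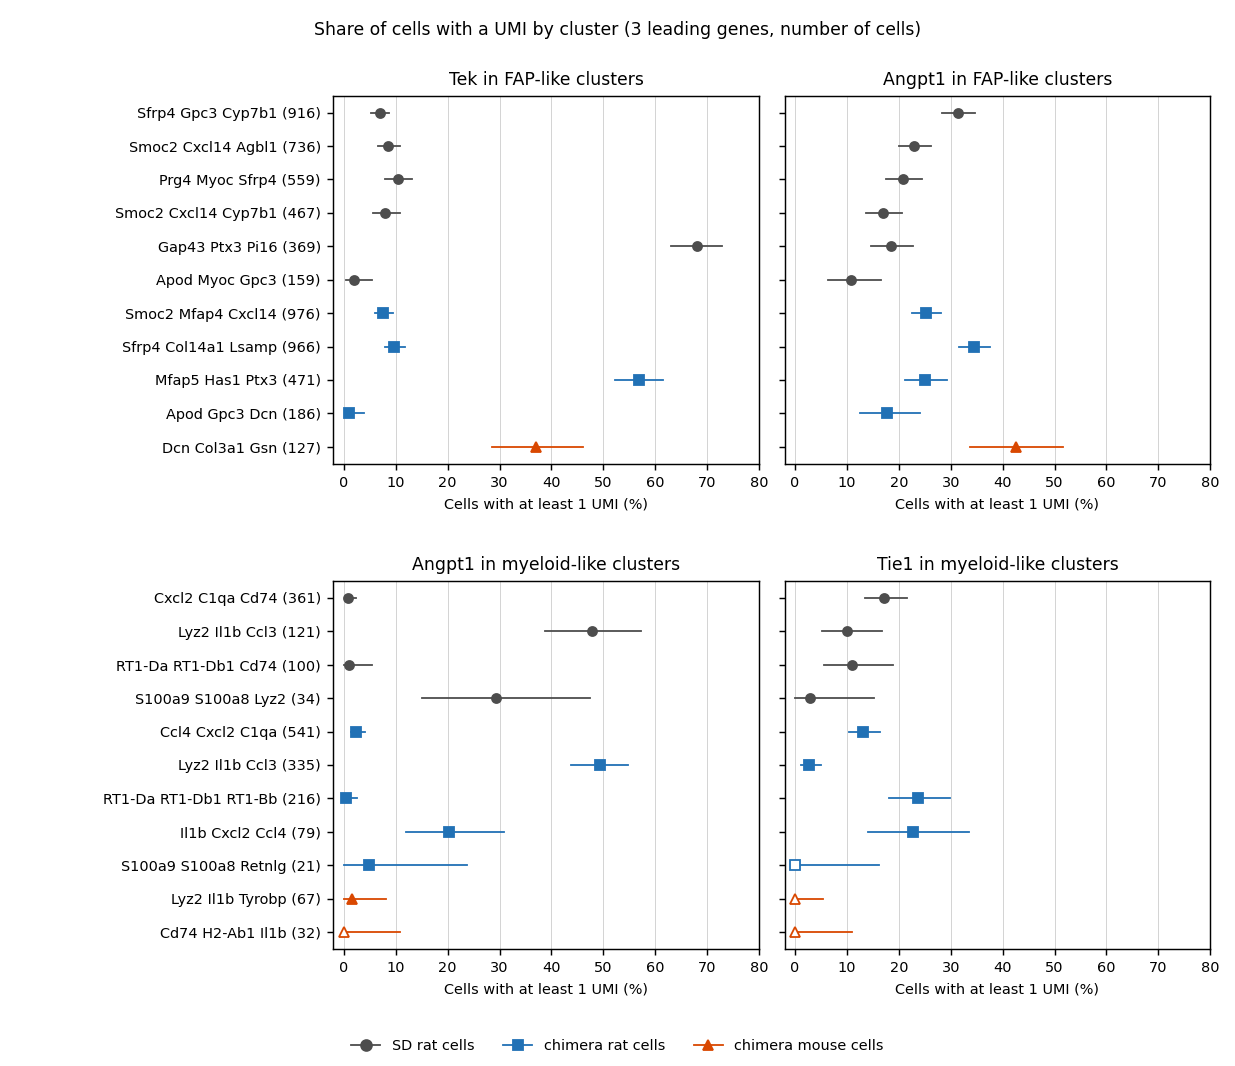
Share of cells with at least 1 UMI (%) by cluster and population, 1 point per cluster with its 95% Clopper-Pearson interval. Tek and Angpt1 are shown for FAP-like clusters, and Angpt1 and Tie1 for myeloid-like clusters. Open symbols mark clusters without a UMI. An Angpt1 UMI was found in 47.9% (SD rat) and 49.3% (chimera rat) of cells in a single myeloid-like cluster of each. For Tek the highest FAP-like cluster of each had 68.0% and 56.9%.

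In vascular EC-like cells the Angpt1 level was 4.93 CPM in the SD rat and 1.48 CPM in the chimera rat, and 0 of 1080 mouse cells had a UMI, which allows a share of up to 0.278%. Mural-like cells, the pericytes and smooth muscle cells wrapped around vessels, had little of it. Their Angpt1 level was 15.4 CPM (7.97 to 26.9) in 277 SD rat cells and 10.7 CPM (6.31 to 16.8) in 339 chimera rat cells, from 12 and 18 UMIs, and both intervals lay below those of FAP-like cells. Smooth muscle-like cells of the SD rat, at 32.2 CPM (15.4 to 59.2) from 10 UMIs, were the highest mural division, against 11.3 CPM (5.18 to 21.5) in the chimera rat.

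Chimera mouse cells formed no mural-like cluster, so mural sources could be described in rat cells alone. Of 1847 mouse barcodes, 1 had UMIs of at least 6 mural markers and of at most 2 EC markers, compared with 97 of 8816 in the SD rat and 201 of 8230 chimera rat barcodes, and it held no UMI of any of the 6 genes.

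Next, Angpt2 (ENSRNOG00000016696, ENSMUSG00000031465) was placed. Vascular EC-like cells had 92.8 CPM (84.3 to 102) in the SD rat, 84.1 CPM (74.6 to 94.4) in chimera rat cells and 80.1 CPM (73.7 to 86.8) in chimera mouse cells. All 3 intervals overlapped. The shares of cells with a UMI were 15.3%, 21.9% and 25.5%, in the order of the depth of the classes, but after thinning, which left out 448, 64 and 74 shallower cells, they were 8.07% (6.54 to 9.81), 6.08% (4.34 to 8.25) and 7.16% (5.64 to 8.93). T or NK-like cells had 8.59, 3.49 and 2.24 CPM. The summed CPM of 11 mural markers was 384 in SD rat vascular EC-like cells with an Angpt2 UMI and 285 in those without. In the chimera rat it was 526 and 166, and for 12 markers in the chimera mouse 22.6 and 24.9. Median depths were 4052 and 1560, 5503 and 2872, and 7974 and 4562 UMIs. The part of mural transcripts in the result was not tested.

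Within EC, Angpt2 was low in the arterial division. Arterial EC-like cells had 16.9 CPM in the SD rat (66 cells), 8.11 CPM in chimera rat cells (26) and no UMI in 35 chimera mouse cells. Venous EC-like cells had 108, 75.7 and 70.7 CPM (60, 72 and 102 cells). Capillary EC-like cells, distinguished in the SD rat alone, had 85.3 CPM (300 cells), and the remaining vascular EC-like cells had 103, 90.6 and 84.5 CPM.

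Angpt2 also separated the mural divisions. Smooth muscle-like cells had 142 CPM (103 to 190) in 81 SD rat cells and 96.9 CPM (76.5 to 121) in 127 chimera rat cells, with a UMI in 28.4% and 29.9% of cells. Pericyte-like cells had 7.41 CPM (1.53 to 21.6) in 180 SD rat cells and 24.9 CPM (9.15 to 54.3) in 80 chimera rat cells, with a UMI in 1.67% and 6.25%. In each animal the intervals of smooth muscle-like and pericyte-like cells did not overlap. Of SD rat mural-like cells with an Angpt2 UMI, 63.0% had a UMI of Pecam1, Cdh5, Flt1 or Kdr, against 38.8% of those without. Their median depths were 5310 and 2340 UMIs. In the chimera rat the shares were 34.9% and 21.7%, at 6033 and 3681 UMIs. Flt1 differed most in both animals, at 59.3% and 29.2% in the SD rat. Kdr in the SD rat, and Pecam1 and Cdh5 in the chimera rat, were less frequent in cells with an Angpt2 UMI. The summed CPM of 11 EC markers in cells with and without an Angpt2 UMI was 812 and 743 in the SD rat. In the chimera rat the order was reversed, at 409 and 507. The part of EC transcripts and of depth in the result was not tested. Over all mural-like cells the levels were 63.0 and 64.5 CPM. FAP-like and myeloid-like cells stayed at 1.10 to 2.68 CPM, within the range of T or NK-like cells or lower. Clusters with both mural and EC markers raised, of 107 SD rat and 82 chimera rat cells, were set apart after seeing them, since their UMIs could not be assigned to 1 type, and had 89.7 and 58.8 CPM.

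**Figure D3:**
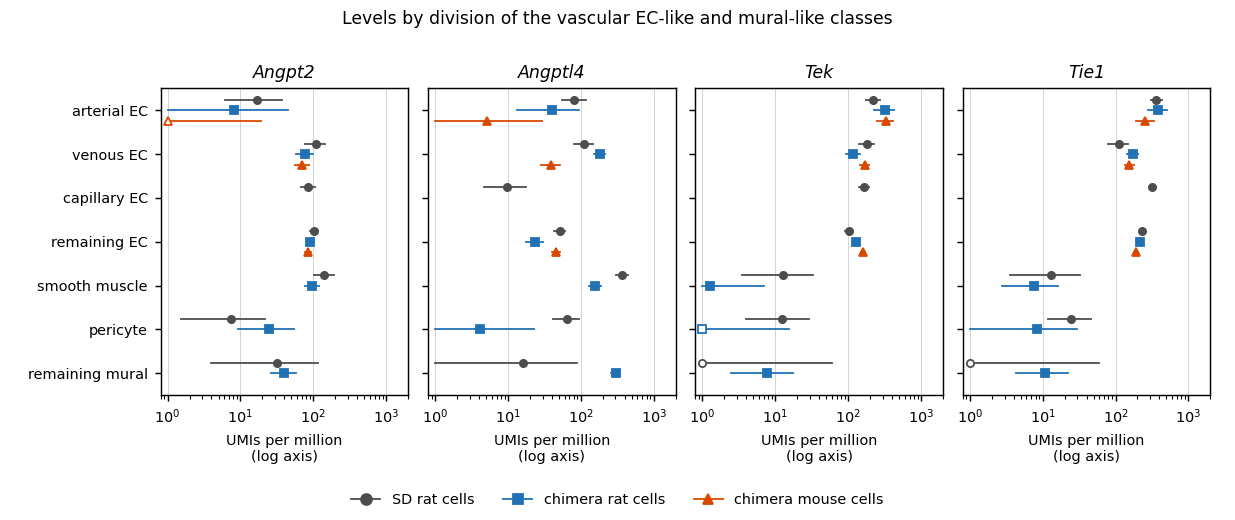
CPM of Angpt2, Angptl4, Tek and Tie1 (log axis), 1 point per division and population with its 95% Poisson interval. The divisions are arterial, venous, capillary and remaining vascular EC-like cells and smooth muscle-like, pericyte-like and remaining mural-like cells. Open symbols mark 0 UMIs, drawn at the floor of the axis. Angpt2 was lowest in arterial EC-like and pericyte-like cells, while Tek was present at 103 to 326 CPM in each EC division.

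Angptl4 (ENSRNOG00000007545, ENSMUSG00000002289) had sources in several classes. Mural-like cells were the highest rat class, at 181 CPM (153 to 214) in the SD rat and 191 CPM (171 to 213) in the chimera rat. Schwann-like or glial-like cells followed at 122, 145 and 74.3 CPM in SD rat, chimera rat and chimera mouse cells (147, 100 and 26 cells), and the 3 intervals, of 98.4 to 149, 117 to 178 and 29.9 to 153, overlapped. FAP-like cells had 50.7, 54.0 and 45.0 CPM and vascular EC-like cells 49.5, 61.3 and 43.4 CPM. In T or NK-like cells 0, 3.66 and 0 CPM were measured. Vascular EC-like cells also held FAP transcripts, with a summed 3368, 2470 and 92.1 CPM of 12 FAP markers. Those with an Angptl4 UMI had 3917 CPM of these markers in the chimera rat and those without had 2039. The order was reversed in the SD rat, at 2420 and 3532 CPM, and in the chimera mouse, at 56.3 and 101 CPM. The part of FAP transcripts in the result was not tested.

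In contrast to Angpt1, Angptl4 was concentrated in few cells. In mural-like cells 11.9% of SD rat and 16.5% of chimera rat cells had a UMI (7.39% and 9.70% after thinning), and 75.9% and 56.0% of all UMIs came from 10 cells. In FAP-like cells a single cell held up to 56 UMIs in the SD rat and 112 in the chimera rat, and in the 127 mouse cells 10 cells held 97.6%. Summed levels of this gene therefore rested on few cells, which the Poisson intervals did not reflect.

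Among the mural divisions the Angptl4 levels differed between the 2 animals, but the divisions did not hold matching clusters. Smooth muscle-like cells had 367 CPM in the SD rat and 157 CPM in the chimera rat, pericyte-like cells had 64.2 and 4.16 CPM, and the remaining mural-like cells had 16.1 CPM (16 cells) and 301 CPM (132 cells). A cluster of 35 SD rat cells with Fst, Rarres1, Ecrg4 and Angptl4 among its leading genes was named smooth muscle-like. In the chimera rat the cluster of 35 cells with these leading genes had under 6 markers of any division raised. It was counted among the remaining cells, as was a cluster of 27 cells led in part by Angptl4. The part of the naming was not tested. Venous EC-like cells had 111, 182 and 39.2 CPM in SD rat, chimera rat and chimera mouse cells, and arterial EC-like cells 81.9, 40.6 and 5.25 CPM. The promoter of rat Angptl4 is shown because this gene lay in both mural and EC divisions at unequal levels. In RefSeq (GRCr8) the 250 bases before its start, chr7:15258682-15258931 on the minus strand, read, with matches to TATAAA on either strand in capitals:
Angptl4: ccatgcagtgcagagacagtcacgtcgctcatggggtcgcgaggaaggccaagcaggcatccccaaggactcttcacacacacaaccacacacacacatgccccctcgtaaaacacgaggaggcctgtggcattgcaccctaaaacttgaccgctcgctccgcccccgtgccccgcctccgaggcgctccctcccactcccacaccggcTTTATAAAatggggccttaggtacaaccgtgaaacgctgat
The capitals hold TATAAA and, overlapping it, its reverse complement TTTATA. These matches were followed by 33 and 35 bases up to the start, and 12.9% of 33469 rat promoters of this length held at least 1 match. Of the 6 genes, 2 were matched in the promoter table.

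Then the receptors were considered, beginning with Tek (ENSRNOG00000008587, ENSMUSG00000006386). Vascular EC-like cells had 132 CPM (122 to 143) in the SD rat, 133 CPM (121 to 145) in chimera rat cells and 164 CPM (155 to 173) in chimera mouse cells. The rat values overlapped and the mouse value lay above both. Tek was detected in 25.1%, 37.0% and 52.0% of the cells, and after thinning in 13.3% (11.4 to 15.4), 13.8% (11.2 to 16.7) and 16.1% (13.9 to 18.5). Arterial EC-like cells had the highest levels, at 223, 316 and 326 CPM. Venous EC-like cells had 180, 117 and 169 CPM. Lymphatic EC-like cells had 41.5 CPM in 110 SD rat and 55.3 CPM in 82 chimera rat cells. T or NK-like cells had no Tek UMI in 93 SD rat cells (at most 3.23% by the floor of 3 counts), and 0.871 and 2.24 CPM in chimera rat and chimera mouse cells.

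Unlike Tie1 and Ptprb, Tek was also found in FAP-like cells. There its level was 26.0 CPM (24.4 to 27.8) in the SD rat, 29.3 CPM (27.3 to 31.3) in chimera rat cells and 58.9 CPM (48.4 to 71.0) in chimera mouse cells, with a UMI in 14.8%, 16.8% and 37.0% of cells. FAP-like cells were numerous and deep, and held 54.0% of all Tek UMIs in the SD rat and 55.3% in chimera rat cells, against 35.1% and 29.4% for vascular EC-like cells. In chimera mouse cells, where FAP-like cells were few, vascular EC-like cells held 84.2%.

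In each rat population 1 FAP-like cluster carried most of this signal. In the SD rat this was a cluster of 369 cells led by Gap43, Ptx3, Pi16, Pcsk6 and Cd248, with 115 CPM of Tek (107 to 125) and a UMI in 68.0% of cells (63.0 to 72.8). The other 5 clusters had 2.61 to 14.2 CPM. In the chimera rat it was a cluster of 471 cells led by Mfap5, Has1 and Ptx3, with 98.1 CPM (90.5 to 106) and a UMI in 56.9% of cells (52.3 to 61.4), while the other 3 clusters had 1.28 to 11.4 CPM. Tek in these clusters was lower than in vascular EC-like cells of the same animal, with overlapping intervals in the SD rat and separate intervals in the chimera rat. Pi16, a secreted protease inhibitor, is a known marker of a perivascular and adventitial fibroblast state. By this gene alone, a split chosen after the values were seen, Tek was 47.4 CPM in FAP-like cells with a Pi16 UMI and 12.2 CPM in those without in the SD rat, 56.8 and 15.8 CPM in the chimera rat, and 91.9 and 33.3 CPM in the chimera mouse (50 and 77 cells). After thinning, the shares of cells with a Tek UMI were 3.99% and 1.21%, 5.80% and 1.09%, and 10.2% and 0%, the last of 75 cells, which allows up to 4.0%.

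The presence of other EC transcripts in these cells was then compared. A UMI of Pecam1, Cdh5, Flt1 or Kdr was found in 22.5% of FAP-like cells with a Tek UMI and 21.7% of those without in the SD rat, in 13.5% and 12.7% in the chimera rat, and in 23.4% and 25% in the chimera mouse. The ratio of Tek to Ptprb UMIs was 0.169, 0.196 and 0.227 in vascular EC-like cells and 5.30, 11.5 and 13.8 in FAP-like cells of SD rat, chimera rat and chimera mouse. In chimera rat FAP-like cells 5.61% of the UMIs of the Tek pair lay on the mouse row, against 51.0% for Tie1 and 51.0% for Ptprb.

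Tie1 (ENSRNOG00000020173, ENSMUSG00000033191) was held by EC of all kinds. Vascular EC-like cells had 251 CPM (236 to 265) in the SD rat, 213 CPM (197 to 229) in chimera rat cells and 188 CPM (178 to 198) in chimera mouse cells. The SD rat interval lay above both others. The shares of cells with a UMI ran the other way, at 37.0%, 50.9% and 55.8%, while after thinning they were 24.5% (22.0 to 27.1), 20.3% (17.2 to 23.7) and 17.6% (15.3 to 20.1), in the order of the CPM. Lymphatic EC-like cells had 306 CPM (268 to 348) in the SD rat and 183 CPM (153 to 217) in the chimera rat. Arterial EC-like cells had 364, 381 and 257 CPM and venous EC-like cells 111, 174 and 155 CPM in SD rat, chimera rat and chimera mouse cells, so that the arterial level was the higher in each.

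The rat Tie1 promoter is given because Tie1 was the receptor gene found in the table. The 250 bases before its start, chr5:137304982-137305231 on the minus strand of GRCr8 (RefSeq), read, with matches to GGAA on either strand, the core letters bound by ETS factors of which EC have several, in capitals:
Tie1: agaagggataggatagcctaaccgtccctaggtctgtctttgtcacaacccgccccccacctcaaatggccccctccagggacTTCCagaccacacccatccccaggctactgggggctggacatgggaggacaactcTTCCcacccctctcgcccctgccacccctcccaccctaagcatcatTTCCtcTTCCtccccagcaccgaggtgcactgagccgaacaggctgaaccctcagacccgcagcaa
All 4 matches were in the reverse form TTCC, followed by 163, 108, 62 and 56 bases up to the start. This short motif was present in 93.2% of the promoters, so most promoters of this length hold it.

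A low Tie1 signal was found in rat myeloid-like cells. Its level was 18.5 CPM (15 to 22.5) in the SD rat and 16.8 CPM (14.5 to 19.4) in the chimera rat, with a UMI in 14.0% and 12.5% of cells. None of 99 chimera mouse myeloid-like cells had a Tie1 UMI, which allows up to 3.03%. T or NK-like cells had 5.38% of 93 SD rat and 2.28% of 702 chimera rat cells with a UMI, and after thinning the myeloid-like shares were 2.45% (1.38 to 4.0) and 2.11% (1.37 to 3.09). No myeloid-like cell had more than 3 Tie1 UMIs, and 74 of 86 positive cells in the SD rat had 1. The C1q clusters, low in Angpt1, had 22.6 CPM of Tie1 in the SD rat and 19.1 CPM in the chimera rat. A UMI was found in 17.2% and 13.1% of their cells. Tie1 was not confined to them. A chimera rat cluster of 216 cells led by RT1-Da had 21.2 CPM (16.4 to 27.1), with a UMI in 23.6% of cells. C1qa was found in 21.3% of them. A chimera rat cluster of 79 cells led by Il1b and Cxcl2, with C1qa in 75.9%, had a Tie1 UMI in 22.8%. Median depths were 14450 and 15656 UMIs, against 8669 in the C1q cluster. The SD rat cluster led by RT1-Da, of 100 cells, had 11.5 CPM (6.11 to 19.6). The Lyz2, Il1b and Ccl3 clusters, high in Angpt1, had 14.6 CPM of Tie1 (7.78 to 25) in the SD rat, which overlapped the C1q cluster (17.7 to 28.5), and 4.38 CPM (2.00 to 8.31) in the chimera rat. EC transcripts did move with this signal in the SD rat, where the summed CPM of 11 EC markers was 327 in myeloid-like cells with a Tie1 UMI and 151 in those without, whereas in the chimera rat it was 136 and 113, and their part in the result was not tested. Tie1 and Ptprb UMIs stood at 1.48 and 5.41 to 1 in SD rat and chimera rat myeloid-like cells, compared with 0.321 and 0.315 in vascular EC-like cells and 0.500 and 1.64 in T or NK-like cells. B-like cells had a Tie1 UMI in 2.74% of 73 SD rat and 3.08% of 389 chimera rat cells.

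Ptprb (ENSRNOG00000055293, ENSMUSG00000020154) followed EC most closely. Vascular EC-like cells had 780 CPM (755 to 805) in the SD rat, 675 CPM (648 to 704) in chimera rat cells and 721 CPM (702 to 741) in chimera mouse cells, with a UMI in 61.2%, 79.2% and 80.6% of cells. After thinning the shares were 51.1% (48.1 to 54.0), 49.3% (45.3 to 53.3) and 45.1% (42.0 to 48.3). Arterial EC-like cells had 1203, 1030 and 1087 CPM, venous EC-like cells 1014, 668 and 909 CPM, and lymphatic EC-like cells 223 and 198 CPM in the SD rat and chimera rat. Lymphatic EC-like cells were thus below vascular EC-like cells for Ptprb, as they were for Tek. For Tie1 they were above them in the SD rat and below them in the chimera rat, where the intervals overlapped. FAP-like cells had 2.54 to 4.92 CPM, within the 1.92 to 21.3 CPM of T or NK-like cells.

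To compare chimera rat cells with SD rat cells of the same class, log2 ratios of CPM were computed for all genes with at least 50 UMIs over both. A ratio past 2-fold in either direction was taken as the mark, since no test was possible. In vascular EC-like cells 0 of 5 measurable members were 2-fold higher, against 2.66% of 8823 genes, and 0 were 2-fold lower, against 3.71%. The log2 ratios were 0.01 (−0.17 to 0.18) for Tek, −0.14 (−0.36 to 0.08) for Angpt2, 0.31 (0.03 to 0.58) for Angptl4, −0.21 (−0.28 to −0.13) for Ptprb and −0.24 (−0.37 to −0.10) for Tie1, and the median of all genes was −0.01 with quartiles of −0.34 and 0.33. Each member thus lay within or close to the middle range of all genes. For Tek and Ptprb the mean over cells in place of the summed level gave 0.30 and 0.18, which turned the direction for Ptprb.

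In mural-like cells 3 members could be compared. None was 2-fold higher, against 3.74% of 5649 genes, and 1, Ptprb, was 2-fold lower, against 3.08%, at 48.9 CPM in the SD rat and 18.9 CPM in the chimera rat. The summed CPM of 11 EC markers was also lower there, at 756 in the SD rat and 482 in the chimera rat. In these chimera rat cells 39.6% of the Ptprb pair's UMIs lay on the mouse row. The part of either was not tested. The log2 ratio was 0.03 (−0.46 to 0.55) for Angpt2 and 0.08 (−0.21 to 0.37) for Angptl4. The Angptl4 ratio became 0.54 as a mean over cells, 0.57 with the cells that had mural and EC markers counted in, and 3.04 with classes called from marker genes in each barcode, which left 20 SD rat cells with 3 UMIs, and by that rule the Angpt2 ratio was −1.06.

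In lymphatic EC-like cells 1 of 5 members was 2-fold higher, against 2.70% of 4221 genes, and 0 were 2-fold lower, against 3.51%. This was Angptl4, with 14 UMIs in the SD rat and 48 in the chimera rat, a log2 ratio of 1.91 (1.02 to 2.88). In the SD rat 6 cells held 1 UMI each and 1 cell held 8, and in the chimera rat 46 of the 48 UMIs came from 10 cells. Tie1 was lower, by a log2 ratio of −0.74 (−1.06 to −0.43), and Angpt2 by −0.77 (−1.48 to −0.08). Of the Tie1 UMIs, 10 cells held 34.7% in the SD rat and 61.2% in the chimera rat, where 1 cell held 37 of 129.

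In FAP-like cells all 6 members were measurable, and 0 were 2-fold higher, against 2.13% of 12334 genes. Only 1, Tie1, was 2-fold lower, against 2.89%, from 75 and 25 UMIs, below the level of T or NK-like cells in each animal. In chimera rat FAP-like cells 51.0% of the Tie1 pair's UMIs lay on the mouse row, and the part of this was not tested. Angpt1 was higher in chimera rat cells by a log2 ratio of 0.56 (0.45 to 0.67), where the median of all genes was 0.08 and the upper quartile 0.30, but with rat cells limited to those with at most 10% of UMIs on mouse rows it was 0.02. The ratios for Tek and Angptl4 were 0.17 (0.03 to 0.30) and 0.09 (−0.01 to 0.19), and with the same limit the Angptl4 ratio was 0.96, while per all UMIs of the barcode both were slightly below 0, at −0.01 and −0.09.

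In myeloid-like cells 0 of 5 members were 2-fold higher, against 2.25% of 9839 genes, and 1, Ptprb, was 2-fold lower, against 3.10%. Ptprb had 12.5 CPM in the SD rat and 3.11 CPM in the chimera rat, and the summed CPM of 11 EC markers was 180 and 117. In these chimera rat cells 50.7% of the Ptprb pair's UMIs lay on the mouse row. The part of either was not tested. The Angpt1 log2 ratio was 0.51 (0.29 to 0.73), and 4.28 with classes called from marker genes in each barcode, which left 36 and 1 UMIs. The share of the high cluster moved with it, since the Lyz2, Il1b and Ccl3 cluster held 121 of 616 SD rat and 335 of 1192 chimera rat myeloid-like cells, and its part was not tested. The Tie1 ratio was −0.14 (−0.50 to 0.23).

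**Figure D4:**
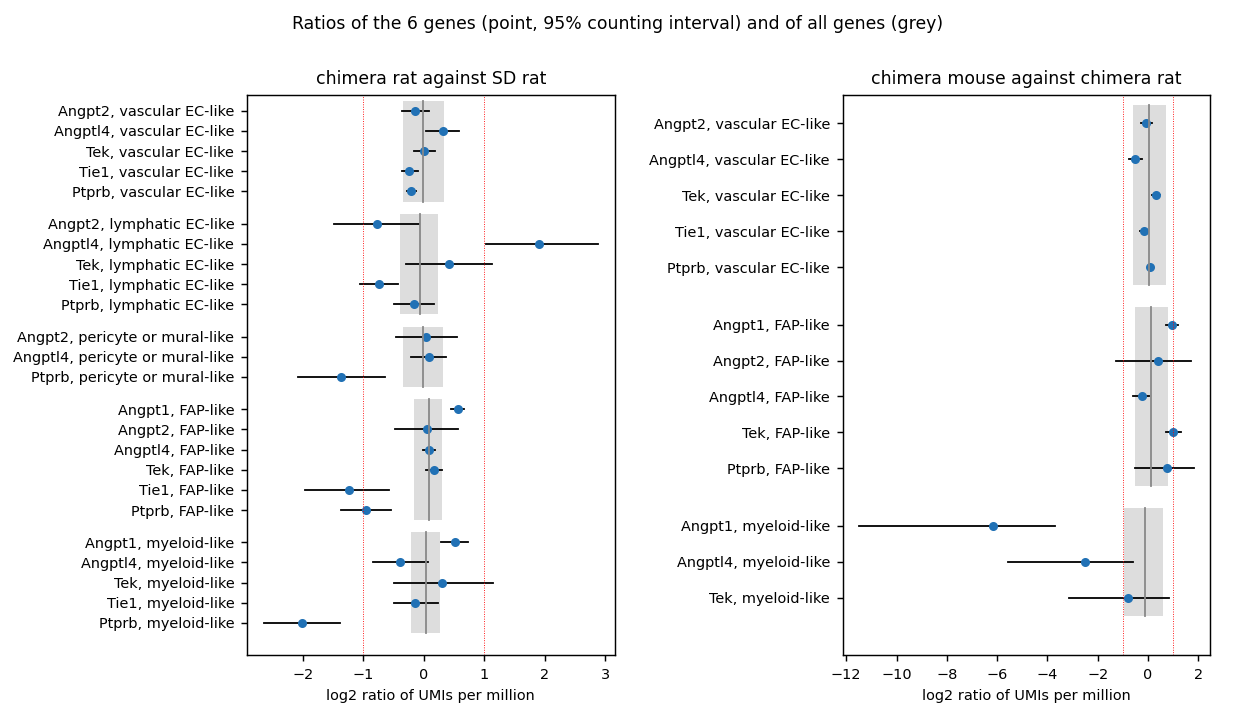
Log2 ratios of CPM of the 6 genes, chimera rat against SD rat and chimera mouse against chimera rat, by class, with 95% intervals from the 2 summed counts; the grey band and line give the quartiles and median of all genes and the dotted red lines mark 2-fold. Vascular EC-like ratios lay between −0.50 and 0.31, while Angpt1 was 0.96 in FAP-like and −6.17 in myeloid-like cells for mouse against rat.

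Chimera mouse and chimera rat cells came from 1 library but were read from different gene rows, and many gene pairs differed between them. In vascular EC-like cells 0 of 5 members were 2-fold higher in mouse cells, against 18.2% of 8830 pairs, and 0 were 2-fold lower, against 15.5%. The log2 ratios were 0.31 (0.15 to 0.46) for Tek, 0.09 (0.02 to 0.17) for Ptprb, −0.07 (−0.28 to 0.14) for Angpt2, −0.18 (−0.31 to −0.04) for Tie1 and −0.50 (−0.75 to −0.24) for Angptl4, where the quartiles of all pairs were −0.60 and 0.70. The ratios of all 5 genes in vascular EC-like cells were thus within the middle range of gene pairs. As a mean over cells the Ptprb ratio was −0.10 and the Angptl4 ratio 0.13, which turned both directions, and with classes called from marker genes the Angptl4 ratio was −1.15.

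In FAP-like cells 1 of 5 members, Tek, was 2-fold higher in mouse cells at a log2 ratio of 1.01 (0.71 to 1.30), against 19.6% of 10317 pairs, and 0 were 2-fold lower, against 16.5%. Angpt1 followed at 0.96 (0.73 to 1.18). A share of 1 in 5 is near the background. The mouse FAP-like cells formed 1 cluster of 127 cells, in which 10 cells held 52.7% of the Angpt1 UMIs and 40.9% of the Tek UMIs.

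In myeloid-like cells 0 of 4 members were 2-fold higher in mouse cells, against 14.2% of 8450 pairs, and 3 were 2-fold lower, against 27.1%. Angpt1 had 1 UMI in mouse and 663 in rat cells, a log2 ratio of −6.17 (−11.48 to −3.69), which was −2.70 with 10 CPM added to both levels and −2.30 with classes called from marker genes. Angptl4 had 2 and 104 UMIs, a log2 ratio of −2.50 (−5.56 to −0.61). Tie1 had 0 and 184 UMIs and was at least 6.67-fold lower, taking a floor of 3 UMIs for the mouse cells. The makeup of the class also differed, since mouse cells formed a Lyz2, Il1b and Plac8 cluster but no cluster led by C1q genes, and its part was not tested. Among mouse myeloid-like cells with UMIs of all 3 C1q genes, 0 of 23 had a Tie1 UMI, which allows a share of up to 13%, against 17.6% of 364 SD rat and 14.9% of 605 chimera rat cells.

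In the chimera, UMIs of a gene pair can lie on the row of the other species, and their source was not tested. In chimera rat cells the share of a pair's UMIs on the mouse row was 1.74% for Angpt1, 8.00% for Angpt2, 0.470% for Angptl4, 9.13% for Tek, 5.59% for Tie1 and 8.66% for Ptprb, with a median of 4.63% over 12545 pairs. In rat vascular EC-like cells it was 0.481% to 5.08% for the 5 genes expressed there. In chimera mouse cells the share on the rat row ran from 0.754% for Angpt2 to 6.98% for Angptl4, with a median of 2.32% over 10499 pairs. Over all cells of a species, each of the 6 genes was thus read mainly from its own row. This did not hold in every class of chimera rat cells. The mouse row held 51.0% of the Tie1 pair and of the Ptprb pair in FAP-like cells, against 1.51% and 2.44% in vascular EC-like cells. It also held 50.7% of the Ptprb pair in myeloid-like cells and 60.0% of the Tek pair, of 15 UMIs, in mural-like cells.

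Further, 45 other genes of the system were counted, in 4 groups of 8 related ligands, 6 integrins and sheddases, 21 signaling genes and 10 targets or regulators of Angptl4. Between chimera rat and SD rat vascular EC-like cells 30 were measurable. Of these, 1 was 2-fold higher, the shear-responsive transcription factor Klf2, at 561 CPM in the SD rat and 1183 CPM in the chimera rat, a log2 ratio of 1.07 (1.00 to 1.15), and 0 were 2-fold lower, against 2.66% and 3.71% of all genes. Their median ratio was −0.20.

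In mural-like cells 1 of 26 was higher, the secreted angiopoietin-like protein gene Angptl1 (24.4 CPM in the SD rat, 80.5 CPM in the chimera rat), and 1 was lower, the transcription factor Klf4 (302 and 143 CPM), against 3.74% and 3.08% of all genes. In FAP-like cells, against 2.13% and 2.89%, 0 of 39 were higher and 2 were lower, Klf4 (1253 and 478 CPM, −1.39) and Nos3, the EC nitric oxide synthase, from 47 and 12 UMIs. Klf4 was lower in the chimera in all 7 classes compared, from −0.90 in vascular EC-like to −1.59 in myogenic progenitor-like cells. Among lymphatic EC-like cells 1 of 24 was higher and 2 lower, against 2.70% and 3.51% of all genes, and among myeloid-like cells 0 of 34 were higher and 2 lower, against 2.25% and 3.10%. In each class at most 2 genes were past 2-fold in the same direction.

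Between mouse and rat cells of the chimera, 3 of 31 pathway genes were 2-fold higher and 6 lower in vascular EC-like cells, against 18.2% and 15.5% of all pairs, so that the counts were near or below the background and the genes are given as a description. Lpl, the lipase that Angptl4 inhibits, was at 180 CPM in mouse and 387 CPM in rat cells, and the regulators Pparg and Rxra were higher in mouse cells at log2 ratios of 1.39 and 2.95. Pik3r3, a regulatory subunit of PI3 kinase, was higher at 1.12. The adaptor genes Grb2 and Shc1 were lower at −1.09 and −1.39, as were Tnip2 at −1.82, Ppard at −1.15 and Angptl1 at −7.64. In FAP-like cells 7 of 36 were higher and 1 lower, against 19.6% and 16.5% of all pairs, again no more than near the background. The higher ones were the integrin genes Itgav (1.09) and Itgb3 (1.08), the lipase Lipg (3.19), the lipase maturation factor Lmf1 (1.40), Rxra (2.97) and the hypoxia-inducible factors Hif1a (1.15) and Epas1 (1.59). Angptl8 was lower, with 0 UMIs in mouse and 146 in rat cells. By group, 5 of the 9 measurable targets and regulators of Angptl4 (10 listed) were higher in mouse cells, against 19.6% of all pairs. The counts were 2 of 5 for integrins and sheddases, 0 of 5 for related ligands and 0 of 17 for signaling genes. Differences between the groups were not tested. Angptl4 itself was at −0.26 (−0.60 to 0.05), with values from −1.45 to 0.19 under the alternatives tried.

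Finally, the genes whose pattern over 13 SD rat classes was most like that of each member were listed by Pearson correlation of log2(CPM + 10). These are descriptions without a test, since classes share a library. Ptprb was most like Cdh5 (0.97), the EC cadherin, Dll4 (0.96) and Adgrl4 (0.96), and Tie1 was most like Bcl6b, Kank3 and Map3k11 (0.97 each). For Tek the most similar genes were Hspa12b, Trim69 and Stc1 (0.95 each). The same correlations over 13 chimera rat classes were 0.91 to 0.97 for the neighbors of Ptprb and Tie1 and 0.89 to 0.98 for those of Tek. Those of Angpt2 were Alg13, Scarf1 and Hey1 (0.92 each), of which Alg13 reached 0.55 in the chimera rat. Angptl4 was most like Micall2 (0.95), Ro60 (0.93) and Zcchc24 (0.92), and Angpt1 was most like Cndp2 (0.86), Rspo1 (0.85) and Pid1 (0.83). Among the members themselves Tie1 and Ptprb were alike at 0.92 in the SD rat and 0.94 in the chimera rat, whereas Angpt1 and the EC genes were between −0.20 and 0.06 in the SD rat.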

How the data were processed

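Per the submitters' processing notes, reads were processed with Cell Ranger 7.1.0, and the builds named are GRCm39 and mRatBN7.2. The authors deposited whole-number UMI counts for each gene in each barcode, without normalization. The authors mapped chimera reads to a combined rat and mouse reference, whose rows carry species suffixes, while the SD rat table has rat rows only. The reference used for the SD rat reads is not stated separately, so whether reads could leave rat rows in both libraries or in the chimera alone is not known. Barcodes with at least 500 UMIs, 200 genes and at most 20% mitochondrial UMIs were kept (12174 chimera, 8980 SD rat), and doublets called per library with scanpy 1.11.5 were left out (444 and 164). Library totals were 118872850 and 70957559 UMIs. Cells were clustered with leidenalg 0.10.2 at resolution 1 on 2000 variable genes and 30 components, without the 6 genes, and named by markers. The rules that set apart cycling EC, mural clusters with EC markers and divisions with at least 6 raised markers were chosen after seeing the clusters. Counts were summed per class and divided by own-species UMIs, and exact intervals were computed with scipy 1.17.1. The intervals of ratios were checked on simulated Poisson counts. That check had no uneven spread of UMIs over cells, so it covered counting error only. No test was possible with 1 library per group. The members and lists were chosen with earlier results of these data known. Members were always named, pathway genes when 2-fold apart in vascular EC-like, mural-like or FAP-like cells, and the 3 genes most like each member. Cluster examples and values for other classes were chosen after they were seen. Promoters were matched by symbol in RefSeq. Alternatives covered filters, species limits, normalization, class rules and added counts.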

Additional observations from a re-analysis of the deposited data

Results flagged for a closer look

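Angpt1 differed in opposite directions between mouse and rat cells of the chimera. The log2 ratio was 0.96 in FAP-like cells and −6.17 in myeloid-like cells, so the mouse cells were higher in the first class and lower in the second. The difference between the classes was not tested.

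The 1653 chimera barcodes with between 20% and 80% of their UMIs on mouse rows entered no comparison, but held UMIs of all 6 genes. Over both rows there were 178 UMIs of Angpt1, 493 of Angpt2, 503 of Angptl4, 705 of Tek, 968 of Tie1 and 3340 of Ptprb. For Ptprb 667 lay on the rat row and 2673 on the mouse row, and for Angpt1 139 and 39.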

How the results depend on the processing

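No paired analysis was possible because each group was 1 library. Over 23 ratios and 225 alternative values, 184 stayed within the counting interval of the reported value and 41 moved outside it. The 12 ratios of each gene in its highest class kept 96 of 117 values. Where values moved the cause was not tested. For Angpt1 in myeloid-like cells the chimera rat to SD rat ratio was 0.81 with species called at 90% and 10% and 4.28 with classes from marker genes (36 and 1 UMIs), and the mouse to rat ratio was −2.30 with marker genes and −2.70 with 10 CPM added. For Angptl4 in mural-like cells it was 3.04 with marker genes, 0.54 as a mean over cells and 0.57 with cells of mural and EC markers counted in, an alternative chosen after seeing the data. For Tek in vascular EC-like cells, chimera rat to SD rat, it was −0.20 per all UMIs of the barcode and 0.30 as a mean over cells. For Ptprb there it was −0.30 with at least 1000 UMIs, −0.30 with at most 10% mitochondrial UMIs, −0.08 with doublets kept, −0.41 per all UMIs, −0.38 with both rows added, −0.31 with marker genes, −0.32 at resolution 0.5 and 0.18 as a mean over cells. The mouse to rat Ptprb ratio was 0.02 with doublets kept, 0.22 per all UMIs, 0.19 with both rows added and −0.10 as a mean over cells. Of the other ratios, Angptl4 in FAP-like cells was 0.96 for chimera rat to SD rat and −1.45 for mouse to rat at 90% and 10%. With these species limits vascular EC-like, mural-like and lymphatic EC-like ratios were not run, since the chimera rat cells then held under 20 cells of the class or none, and marker genes gave no value for lymphatic EC-like or Schwann-like cells (16 values in all). Counting error was the limit for low genes: under 50 UMIs in a class no ratio was read, and few cells held most Angptl4 UMIs.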

Other observations

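Angptl4 was also measured in classes not described above. Myogenic progenitor-like cells had 40.8 CPM in the SD rat, 62.7 CPM in chimera rat cells and 31.8 CPM in chimera mouse cells. Tenocyte-like or fibroblast-like cells of the chimera mouse had 77.9 CPM of Angptl4 and 21.6 CPM of Angpt1.

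Cycling vascular EC-like cells formed clusters in the chimera, of 31 rat and 68 mouse cells. They had 66.6 CPM (44.6 to 95.6) and 53.1 CPM (38.9 to 70.9) of Angpt2, 108 CPM (79.3 to 144) and 118 CPM (96.1 to 143) of Tek, and 510 CPM (445 to 581) and 437 CPM (394 to 483) of Ptprb. The Ptprb intervals lay below those of the other vascular EC-like cells of the same species, of 648 to 704 and 702 to 741 CPM. For Tie1 they had 177 CPM (140 to 221) and 191 CPM (163 to 222).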
